A study of Mus musculus with 5 samples.

Results

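Kit encodes cKit, the receptor whose surface protein was used to sort the cells of the study, and Kitl encodes its ligand, KITL or stem cell factor. These 2 genes, of 17902 listed in at least 1 library, were chosen by name as a receptor and ligand pair, and both are listed in all 5 libraries. On the mm10 build, with GENCODE M21 gene models, Kit lies on the plus strand of chromosome 5 from 75574916 to 75656722, with 2 coding transcripts of 21 exons each. Kitl lies on the plus strand of chromosome 10 from 100015630 to 100100416, with 4 coding transcripts of between 4 and 10 exons. No other annotated gene overlaps either of them. UMIs (unique molecular identifiers, 1 per captured transcript) were counted per gene, so transcript forms, among them those that give membrane-bound or more readily shed ligand, are not separated here.

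KIT is a type III receptor tyrosine kinase. Binding of KITL, a dimer made as a membrane protein that proteases can shed, pairs 2 receptors and starts signalling through adaptors, PI3 kinase, Src family kinases and STAT factors. The pair is best known for the survival of mast cells, melanocytes, germ cells and blood progenitors, and in the marrow the ligand comes from endothelial and stromal cells. In the heart, cells with surface cKit have been studied as candidate progenitors, and endothelial and mast cells are known to carry the receptor.

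Cells of the adult mouse heart interstitium were freed with collagenase II, depleted of cardiomyocytes and sorted on surface cKit and DDR2, a collagen receptor. Cells with both were also parted by CD45, the common leukocyte antigen. The sorts were cKit+/DDR2+/CD45- (1 library, 1327 cells, 11942544 UMIs), cKit+/DDR2+/CD45+ (1 library, 3707 cells, 44721895 UMIs), cKit+/DDR2- (replicate 1 with 436 cells and 4047326 UMIs, replicate 2 with 3020 cells and 29542372 UMIs) and cKit-/DDR2+ (1 library, 2280 cells, 20774882 UMIs). No treatment separates the sorts, and strain, sex, age beyond adult, and whether animals were pooled are not given in the labels. With 1 library in 3 of the 4 sorts, sort, animal and library cannot be told apart, and no test between sorts was run. Values are CPM, the UMIs of a gene scaled to 1000000 UMIs of the cells summed, with 95% intervals: exact Poisson for CPM, Clopper-Pearson for shares, exact conditional for ratios. These intervals cover counting error only.

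Libraries stood apart in ways that the sorts do not name. Of the 436 barcodes of cKit+/DDR2- replicate 1, 190 (43.6%) also occur in cKit+/DDR2+/CD45+, where those barcodes held a median of 622.5 UMIs, against 12133.5 in cKit+/DDR2- replicate 1. Each of the 190 resembled its own partner most. They were left out of cKit+/DDR2+/CD45+ (4.88% of its barcodes), and the other pairs of libraries share between 1 and 3 barcodes each. Xist stood at 757 CPM for cKit+/DDR2+/CD45- and 496 CPM for cKit+/DDR2- replicate 2, and at 0 to 0.0671 CPM in the other libraries. Ddx3y, a gene of the Y chromosome, was not listed for cKit+/DDR2+/CD45- or cKit+/DDR2- replicate 2 and stood at 58.7 to 98.6 CPM in the other 3 libraries. Gm42418, which overlaps ribosomal RNA sequence, split the libraries the same way as Xist, with 105710 and 90876 CPM against 9794 to 13922 CPM.

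Cells were placed in 8 classes by the transcripts of their marker genes: lymphatic (Prox1, at least 2 UMIs), endocardial (Npr3, at least 3 per 10000 UMIs), Apln-positive endothelial (Apln, at least 2 UMIs), Rbp7-high endothelial (Rbp7, at least 10 per 10000), fibroblast (Pdgfra, at least 2 UMIs), macrophage (C1qa, at least 5 per 10000), dendritic (Xcr1, at least 1 UMI) and pericyte (Kcnj8, at least 2 UMIs). Apln marks tip-like endothelial cells and Rbp7 the fatty-acid-handling capillaries of the heart. The Rbp7-high gate takes in more than 1 kind of cell. In an unsupervised grouping, 575 of its 1329 cells (43.3%) fell in a cluster with the capillary genes Car4, Rgcc and Gpihbp1 among its leading genes, and 434 (32.7%) in a cluster led by Alpl, Hey1 and Sema3g, of which Hey1 and Sema3g are known from arterial endothelium. Neither Kit nor Kitl was used in any gate. Near the cuts, 199 cells had 1 Apln UMI and 95 had 2 to 3, while 417 cells lay between 5 and 10 per 10000 in Rbp7 and 520 between 10 and 20. Of 10770 cells, 1349 (12.5%) passed no gate and 289 (2.68%) passed gates of 2 lineages and were set apart. Every class carried its own list of markers: all 7 listed genes, or all 6 for Apln-positive cells, stood at least 2-fold above the other classes. The gate gene of a class is on its list and is high there by the gate, so only the other genes of a list are a check. The pericyte class also carried 8412 CPM of the 7 capillary markers, against 30376 to 39643 CPM in Rbp7-high cells, and 182 CPM of Pecam1, a pan-endothelial gene. It carried 9501 CPM of the 7 fibroblast markers as well, against 44275 to 62998 CPM in fibroblasts. Apln-positive cells were rich in capillary markers too. All 7 stood at least 2-fold above the other classes in them, at 15483 to 25145 CPM by library in sums of at least 30 cells. The Apln-positive and Rbp7-high classes are thus not parted by these markers.

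The sorts on surface cKit were mostly made of cells in which Kit transcripts were not detected. At least 1 Kit UMI was found in 137 of 1327 cells (10.3%) from cKit+/DDR2+/CD45- and in 110 of 3707 (2.97%) from cKit+/DDR2+/CD45+. It was found in 65 of 436 cells (14.9%) from cKit+/DDR2- replicate 1, in 321 of 3020 (10.6%) from replicate 2, and in 79 of 2280 (3.46%) from cKit-/DDR2+. With each cell thinned to 3000 UMIs these shares were 6.01%, 0.877%, 8.35%, 3.52% and 1.55% in the same order, after leaving out shallower cells (9995 of 10770 remained). Surface protein was not measured in these files, and a cell without a Kit UMI may still hold the transcript or the protein.

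Over whole libraries, Kit came to 22.6 CPM for cKit+/DDR2+/CD45- (19.99 to 25.5), 3.44 CPM for cKit+/DDR2+/CD45+ (2.92 to 4.03), 35.6 CPM (30.01 to 41.9) for cKit+/DDR2- replicate 1, 21.7 CPM (20.1 to 23.4) for replicate 2 and 4.67 CPM for cKit-/DDR2+ (3.79 to 5.70). Kit was thus highest in both cKit+/DDR2- libraries and cKit+/DDR2+/CD45-, and the cKit+/DDR2+/CD45+ library lay below the cKit- sort. Kitl came to 321 CPM for cKit+/DDR2+/CD45-, 29.4 CPM for cKit+/DDR2+/CD45+, 169 and 104 CPM for replicates 1 and 2 of cKit+/DDR2-, and 250.0 CPM for cKit-/DDR2+. The ligand therefore did not follow the cKit gate, and the cKit- sort held more of it than either cKit+/DDR2- library. The log2 ratio over cKit-/DDR2+ was 2.28 for Kit in cKit+/DDR2+/CD45- (1.94 to 2.63), 2.93 in cKit+/DDR2- replicate 1 (2.55 to 3.32), 2.22 in replicate 2 (1.91 to 2.54) and -0.44 in cKit+/DDR2+/CD45+ (-0.82 to -0.06). Of all genes compared, 14.4%, 16.2%, 19.6% and 34.2% lay 2-fold or more apart, either way, in these comparisons. Surface cKit was the gate, so the Kit ratios are given as a description, and that of cKit+/DDR2+/CD45+ runs the other way. The cKit+/DDR2- replicates themselves differed by a log2 ratio of -0.71 for Kit and -0.70 for Kitl, replicate 2 over replicate 1, where 9.05% of genes lay 2-fold or more apart.

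The levels of whole libraries mix cell classes, and the classes showed the pair more plainly. Kit was highest in Apln-positive endothelial cells and in dendritic cells, and Kitl in Rbp7-high cells followed by Apln-positive cells. Apln-positive cells thus stood high for receptor and ligand alike, while dendritic cells held the receptor with almost no ligand, and Rbp7-high cells the ligand with little receptor.

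**Figure D1:**
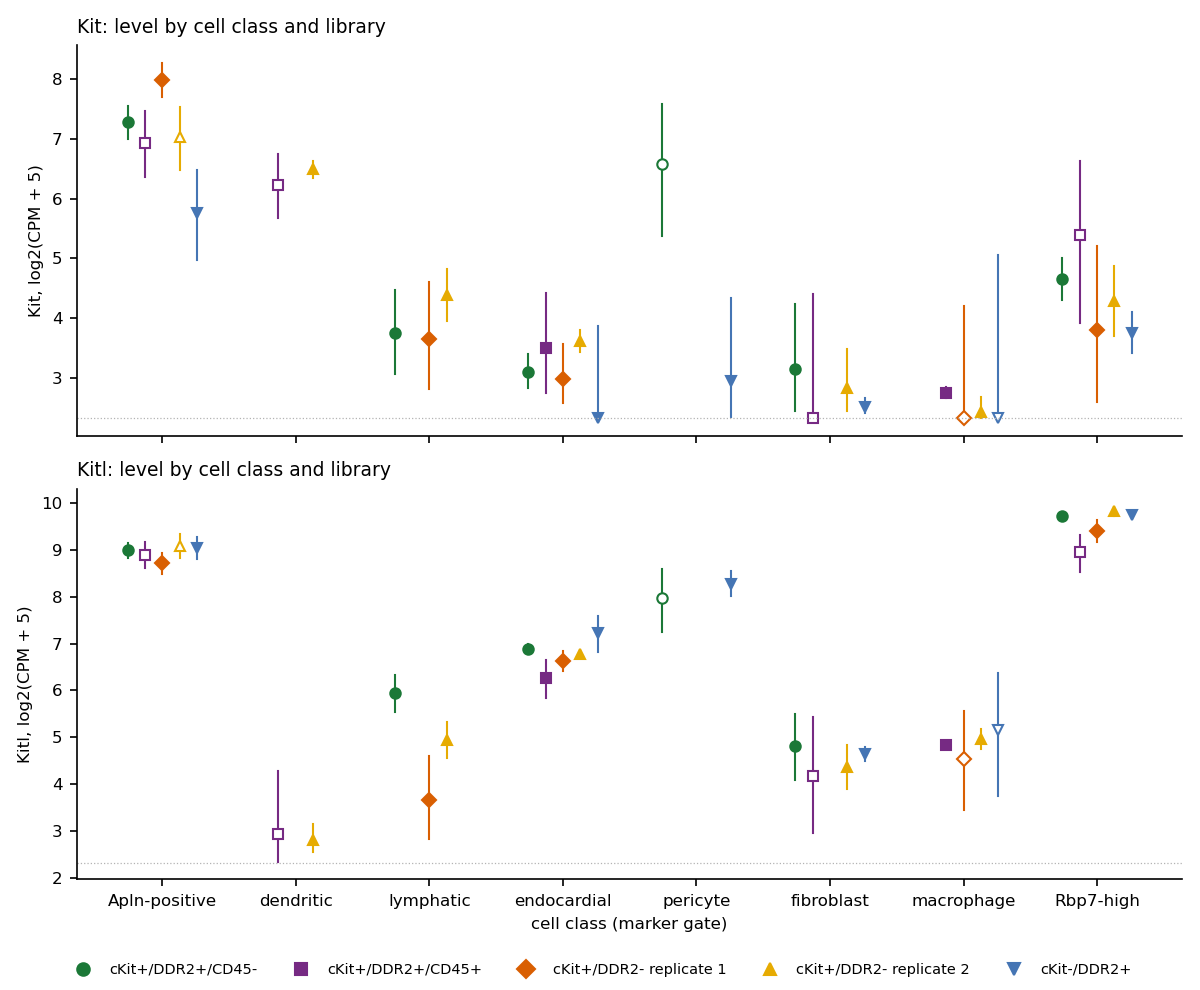
Level of Kit (top) and Kitl (bottom) as log2(CPM + 5), a log scale, in each marker-gated cell class and library, with 95% Poisson intervals. Filled points rest on 30 cells or more, open points on 10 to 29 cells, classes with fewer cells are not drawn, and the dotted line marks 0 CPM. Kit is highest in Apln-positive and dendritic cells, and Kitl in Rbp7-high and Apln-positive cells.

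In Apln-positive cells, Kit stood at 150 CPM (123 to 182, 60 cells) for cKit+/DDR2+/CD45-, 118 CPM (76.9 to 173, 21 cells) for cKit+/DDR2+/CD45+, 249 CPM (203 to 304, 44 cells) for cKit+/DDR2- replicate 1, 126 CPM (84.6 to 181, 23 cells) for replicate 2 and 49.5 CPM (26.3 to 84.6, 36 cells) for cKit-/DDR2+. In Rbp7-high cells it stood at 20.3 CPM, 36.9 CPM (20 cells), 8.87 CPM, 14.5 CPM and 8.49 CPM in the same libraries. Every library had more Kit in its Apln-positive cells than in its Rbp7-high cells, and the ranges over libraries do not overlap. Over sums of at least 30 cells, Kit averaged 150 ± 99.9 CPM in Apln-positive cells (SD, n = 3 libraries) and 13.1 ± 5.58 CPM in Rbp7-high cells (n = 4).

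Differences between classes were tested with limma on log2(CPM + 5) of these sums, with library as a block and Benjamini-Hochberg adjustment over 9861 genes. Kit was higher in Apln-positive than in Rbp7-high cells by 3.004 on the log2 scale (SE 0.32, adjusted p = 8.8e-05 by limma), in 3 of 3 libraries. In that contrast 10.7% of genes were called, 4.54% higher and 6.15% lower. The total of 1054 calls was 225 without cKit+/DDR2- replicate 2 and 355 without cKit+/DDR2+/CD45-. The Kit difference was 2.45 without both libraries that share barcodes (adjusted p = 0.0065 by limma) and between 2.27 and 3.66 over all 19 alternatives. Within single libraries the fold was 7.40 in cKit+/DDR2+/CD45-, 28.1 in cKit+/DDR2- replicate 1 (4.81 on the log2 scale, 2.92 to 7.88), where Rbp7-high cells held 2 Kit UMIs, and 5.83 in cKit-/DDR2+. Median depth was 8842.5 UMIs per cell in Apln-positive and 5190 in Rbp7-high cells. The 7 mast cell markers summed to between 5.04 and 11.7 CPM in Apln-positive sums, with 5 of the 7 at 0, and to between 9.62 and 17.7 CPM in Rbp7-high sums.

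A Kit UMI was seen in 105 of 184 Apln-positive cells (57.1%), with at least 2 UMIs in 70 and up to 8 in a cell. The share was between 52.2% and 72.7% in the cKit+ libraries, against 8 of 36 cells (22.2%, 10.1 to 39.2) for cKit-/DDR2+. At 3000 UMIs per cell it was 30.6% (23.9 to 37.8) of Apln-positive cells, or 8.57% (1.80 to 23.1) of those from cKit-/DDR2+, and 3.90% (2.82 to 5.23) of Rbp7-high cells. As background, Kit was seen at that depth in 1 of 965 fibroblasts (0.104%) and in 0.499% of macrophages, and at full depth in 1.14% of fibroblasts (median 14129.5 UMIs) and 1.74% of macrophages (median 10935.5 UMIs). The shares in Apln-positive and dendritic cells lie far above these levels.

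Kit ran higher with the number of Apln UMIs among endothelial cells. In cells with a Pecam1 UMI and no gate other than Apln or Rbp7, Kit stood at 17.8 CPM with 0 Apln UMIs (15.5 to 20.3, 2003 cells), 81.7 CPM with 1 (65.8 to 100, 144 cells), 81.4 CPM with 2 to 3 (62.6 to 104, 89 cells) and 206 CPM with 4 or more (178 to 236, 92 cells). Over all libraries, cells with a single Apln UMI, below the gate, therefore already stood above those with 0. They differed by less than counting error from those with 2 to 3. The intervals at 0 and 1 UMI overlapped within cKit+/DDR2- replicate 2 (17.6 to 29.6 and 14.5 to 105). They also overlapped within cKit-/DDR2+ (8.59 to 14.4 and 12.7 to 48.9). Median depth was 5711, 7573, 8104 and 10201 UMIs per cell in the same bins. Each of the 5 libraries had a higher Kit level with 4 or more Apln UMIs than with 0, and the intervals do not overlap within any of them. In cKit-/DDR2+ the top bin rests on 9 cells (110 CPM, 44.4 to 228). Kitl took no course that the libraries shared, with 646 CPM at 0 Apln UMIs and 448 CPM at 4 or more over all libraries. It was lower in the top bin for cKit+/DDR2+/CD45- (720 and 412 CPM) and cKit-/DDR2+ (752 and 442 CPM). It was higher there for cKit+/DDR2+/CD45+ (308 and 426 CPM) and for cKit+/DDR2- replicates 1 (372 and 461 CPM) and 2 (452 and 565 CPM).

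In endothelial cells below the Apln gate, Kitl ran higher with Rbp7 and Kit did not. Kitl stood at 243 CPM where Rbp7 was under 1 per 10000 (225 to 263, 376 cells), 456 CPM at 1 to 5, 681 CPM at 5 to 10, 750 CPM at 10 to 20 and 905 CPM at 20 or more (877 to 934, 791 cells). The order held in 4 of the 5 libraries. In cKit+/DDR2+/CD45+, with between 3 and 14 cells per bin, it did not. Kit stood at 30.1, 41.7, 23.2, 20.9 and 10.3 CPM over the same bins, so that over all libraries the bin with the highest ligand level had the lowest receptor level. In cKit+/DDR2- replicate 2, Kit was lower at 5 to 10 (4.09 CPM) than at 20 or more (19.4 CPM). In the 1 to 5 bin, the level of Kit was 83.2 CPM for cKit+/DDR2+/CD45-, 0 CPM for cKit+/DDR2+/CD45+ (8 cells), 96.4 CPM for cKit+/DDR2- replicate 1, 21.7 CPM for replicate 2 and 21.8 CPM for cKit-/DDR2+. Kitl and Rbp7 are counted in the same cells and share depth and library. The bins can also mix kinds of endothelial cell. Of the cells that passed no gate, with or without Pecam1, 175 grouped with endocardial cells in the unsupervised grouping (101 CPM of Kitl). A further 62 grouped with lymphatic cells (46.5 CPM) and 699 with Rbp7-high cells (623 CPM). The part of this mixture in the course of Kitl over the bins was not tested.

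**Figure D2:**
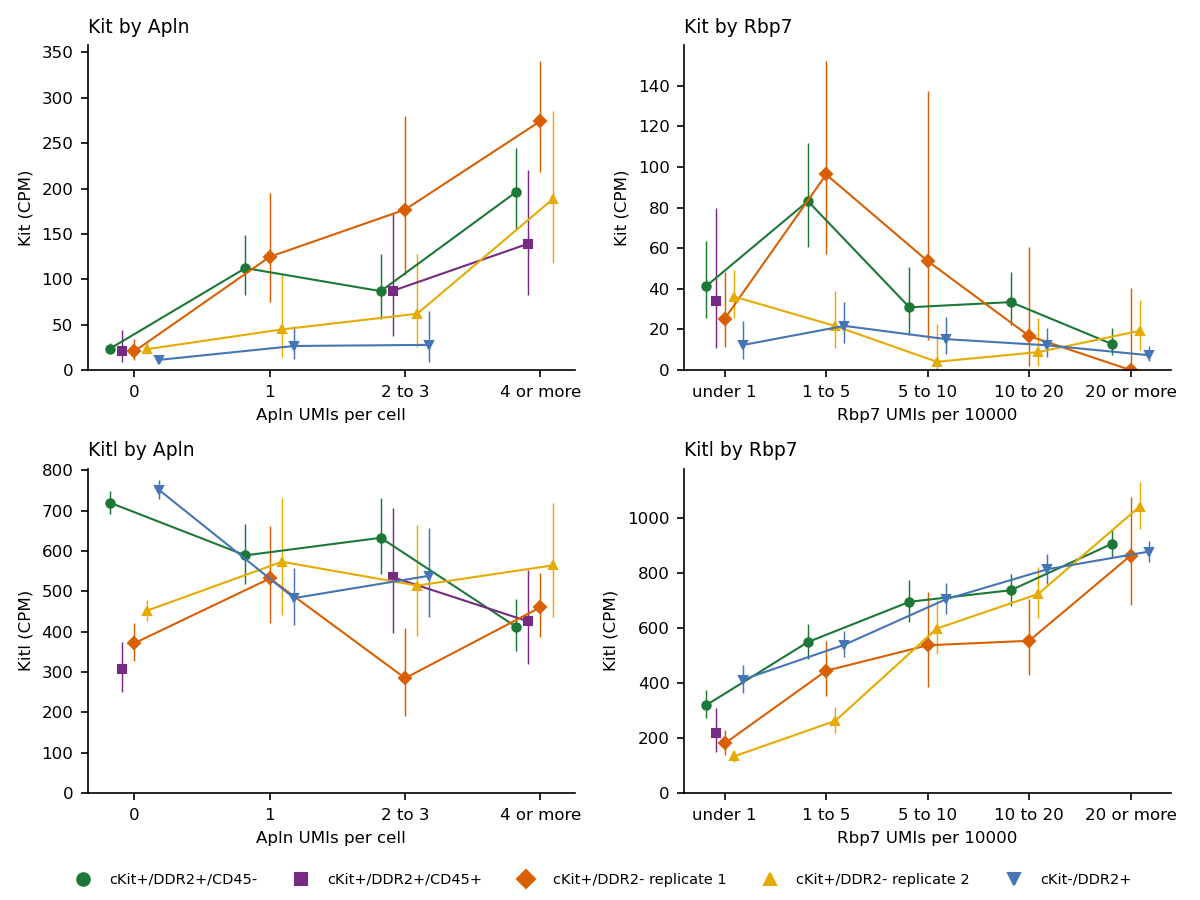
Kit (top) and Kitl (bottom) in CPM, on linear axes, over bins of Apln UMIs (left) and of Rbp7 per 10000 UMIs (right) in endothelial cells, one line per library, with 95% Poisson intervals. Bins with fewer than 10 cells are not drawn, and the right panels leave out cells with 2 or more Apln UMIs. Kit is highest at 4 or more Apln UMIs, and Kitl climbs with Rbp7 to 905 CPM over all libraries.

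Dendritic cells were the other class with abundant receptor. Xcr1 marks type 1 dendritic cells, which cross-present antigen. None were gated in cKit-/DDR2+, so every value for this class is from cells sorted for surface cKit. Of the 245 gated cells, 227 came from cKit+/DDR2- replicate 2. There Kit stood at 85.3 CPM (76.6 to 94.8) and was seen in 157 of 227 cells (69.2%), at most 7 UMIs in a cell. In cKit+/DDR2+/CD45+ 15 such cells held 70.1 CPM (46.2 to 102). At 3000 UMIs per cell the share in cKit+/DDR2- replicate 2 was 16.7% (12.1 to 22.2). These cells were the deepest of the 8 classes, with a median of 18999 UMIs. Kitl in dendritic cells was 1.95 CPM in that library and was seen in 6 of 245 cells over all libraries. Of the 170 dendritic cells with Kit, 2 also had Kitl. The 7 mast cell markers summed to 8.53 CPM in the dendritic sum, with 2 of the 7 at 0.

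The dendritic contrast rests on 1 sum, which is assumed to vary like the others. Kit was higher in dendritic than in Rbp7-high cells by 2.02 on the log2 scale (SE 0.49, adjusted p = 0.0036 by limma), and the difference for Kitl was -6.86 (SE 0.42, adjusted p = 1.5e-09 by limma). Of all genes 41.0% were called in this contrast, 11.4% higher and 29.6% lower.

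The endocardium, which lines the heart chambers, made up much of the cKit-sorted cells but held little receptor transcript. Endocardial cells were 477 of 1327 in cKit+/DDR2+/CD45-, 51 of 3707 in cKit+/DDR2+/CD45+, 154 of 436 and 1281 of 3020 in the cKit+/DDR2- libraries, and 45 of 2280 in cKit-/DDR2+. Kit in them was 3.52 CPM, 6.38 CPM, 2.92 CPM, 7.25 CPM and, in cKit-/DDR2+, 0 CPM from 0 UMIs, where 3 counts would be 7.87 CPM and the Poisson interval reaches 9.67 CPM. A Kit UMI was seen in 94 of 2008 endocardial cells (4.68%). At 3000 UMIs per cell the share was 1.33% (0.871 to 1.94), with 21 of the 26 positive cells from cKit+/DDR2- replicate 2. Without that library it was 0.713% (0.232 to 1.66, 5 of 701 cells), an interval that takes in the 0.499% of macrophages.

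Kit averaged 4.01 ± 2.90 CPM in endocardial cells (SD, n = 5) and 13.1 ± 5.58 CPM in Rbp7-high cells (n = 4), and the values do not overlap, although the interval of the value at 0 reaches above the lowest Rbp7-high value. The difference was -1.13 on the log2 scale (SE 0.29, adjusted p = 0.0057 by limma), where 33.3% of genes were called, 15.6% higher and 17.7% lower. Without cKit+/DDR2+/CD45- it was -0.99 with adjusted p = 0.071 by limma, which misses the threshold of 0.05. Endocardial Kitl stood at 113, 71.7, 94.1, 105 and 144 CPM in the 5 libraries, and a Kitl UMI was seen in 51.4% of the cells. It was lower than in Rbp7-high cells by a log2 difference of -2.83 (SE 0.24, adjusted p = 1.6e-07 by limma), in 4 of 4 libraries that hold both classes. Endocardial cells with and without a Kit UMI had a Kitl UMI in 52.1% and 51.4%.

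Lymphatic endothelial cells held little of either transcript. Kit stood at 8.40 CPM for cKit+/DDR2+/CD45- (80 cells) and at 7.55 CPM (64 cells) and 16.0 CPM (202 cells) in cKit+/DDR2- replicates 1 and 2, a range that overlaps that of Rbp7-high cells. The log2 difference was -0.43 (SE 0.32, 95% interval -1.11 to 0.26, adjusted p = 0.37 by limma), with 30.2% of genes called, 17.7% higher and 12.4% lower, or 2974 genes, and 1869 without cKit+/DDR2- replicate 2. Kitl was 56.4, 7.55 and 25.8 CPM in the same libraries, below every Rbp7-high value, a log2 difference of -4.77 (SE 0.27, adjusted p = 3.7e-09 by limma). A Kitl UMI was seen in 37 of 357 lymphatic cells (10.4%), and in cKit+/DDR2+/CD45- a single cell held 17 of the 47 Kitl UMIs.

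Of the 8 gated classes, Rbp7-high cells had the highest mean level of ligand transcript. Kitl stood at 841 CPM for cKit+/DDR2+/CD45- (803 to 880), 489 CPM for cKit+/DDR2+/CD45+ (20 cells), 674 and 906 CPM for cKit+/DDR2- replicates 1 and 2, and 855 CPM for cKit-/DDR2+ (825 to 886). Apln-positive cells held 505, 471, 416, 540 and 525 CPM in the same libraries. Among the Rbp7-high cells, those of the cluster led by Alpl, Hey1 and Sema3g held 997 CPM of Kitl (958 to 1038) and 1.67 CPM of Kit (0.454 to 4.27, 4 UMIs), and those of the Car4, Rgcc and Gpihbp1 cluster 856 CPM of Kitl (824 to 889) and 17.4 CPM of Kit (13.1 to 22.7, 54 UMIs). The first of these clusters made up between 4.88% and 40.4% of the Rbp7-high cells of a library, and the contrasts take the clusters together. In cKit+/DDR2+/CD45-, 15 Rbp7-high cells (3.87%) grouped with Apln-positive cells. They held 14 of the 45 Kit UMIs of Rbp7-high cells in that library (118 CPM, 64.3 to 197). The clusters were formed on variable genes, with Kit, Kitl, Ddr2 and Ptprc left out, and these values are given as a description.

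Apln-positive cells lay lower in Kitl than Rbp7-high cells in all 5 libraries, by least in cKit+/DDR2+/CD45+. The log2 difference was -0.77 (SE 0.27, adjusted p = 0.085 by limma), so it did not pass the threshold. It passed in 4 of 19 alternatives, with halved gates (adjusted p = 0.034 by limma), with cells of 2 lineages kept (0.020), with voom weights (0.0011) and without cKit+/DDR2- replicate 1 (0.031), and adjusted p ran from 0.0011 to 0.32 over all of them. A Kitl UMI was seen in 92.4% of Apln-positive and 88.0% of Rbp7-high cells.

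Pericytes, the mural cells of capillaries, also held Kitl. In cKit-/DDR2+, the library with 50 of the 75 pericytes, Kitl was 307 CPM (253 to 369) and Kit 2.72 CPM, from 1 UMI. The Kitl difference from Rbp7-high cells was -1.59 on the log2 scale (SE 0.42, adjusted p = 0.012 by limma), and that of Kit -0.49 (SE 0.49, 95% interval -1.54 to 0.57, adjusted p = 0.54 by limma), with 22.2% of genes called. This contrast too rests on 1 sum. In cKit+/DDR2+/CD45-, 11 pericytes held 7 Kit UMIs, all in 2 cells (90.7 CPM, 36.5 to 187). Without cKit+/DDR2- replicate 2, a library that adds no pericyte sum, the adjusted p for Kitl was 0.091 by limma. The capillary and fibroblast markers that the pericyte class carried are given above, and the part of such cells in its Kitl level was not tested. The pericyte cluster of an unsupervised grouping (92 cells) held 413 CPM of Kitl and 7.57 CPM of Kit.

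Fibroblasts, the cells that DDR2 is known to mark, held little of the pair. Kitl in them stood at 23.1 CPM for cKit+/DDR2+/CD45-, 15.6 CPM for cKit+/DDR2- replicate 2 and 19.8 CPM for cKit-/DDR2+, and Kit at 3.85, 2.13 and 0.687 CPM, from 2, 3 and 8 UMIs. The Kitl value for cKit+/DDR2+/CD45- rests on 12 UMIs, of which 10 lay in a single fibroblast. In cKit-/DDR2+, where 792 fibroblasts were gated, 7 had a Kit UMI. The log2 differences from Rbp7-high cells were -1.26 for Kit (SE 0.32, adjusted p = 0.0045 by limma) and -5.24 for Kitl (SE 0.27, adjusted p = 2.2e-10 by limma), with 42.9% of genes called. The Kit call was lost without cKit+/DDR2- replicate 2 (adjusted p = 0.077 by limma) and without cKit+/DDR2+/CD45- (0.056). Fibroblasts were 37 of the 1327 cells of cKit+/DDR2+/CD45- and 14 of the 3707 of cKit+/DDR2+/CD45+, the sorts that carry both surface proteins, and Ddr2 itself stood at 15.3 and 1.36 CPM there, against 106 CPM for cKit-/DDR2+.

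Macrophages filled cKit+/DDR2+/CD45+, with 3402 of its 3707 cells. Kit in them stood at 1.71 CPM (1.33 to 2.16) in that library and 0.391 CPM (0.0474 to 1.41) in cKit+/DDR2- replicate 2. These intervals, from 70 and 2 UMIs, overlap at their ends, which does not show that the levels are equal, and no ratio between them was taken. At 3000 UMIs per cell Kit was seen in 0.550% and 0.20% of the macrophages of these libraries. Kitl was 23.5 and 26.2 CPM, seen in 19.6% of all macrophages and in 5.62% at 3000 UMIs per cell, against 0.816% of dendritic cells. The log2 differences from Rbp7-high cells were -1.99 for Kit (SE 0.42, adjusted p = 0.0011 by limma) and -4.55 for Kitl (SE 0.35, adjusted p = 2.5e-08 by limma), with 38.1% of genes called, from 2 macrophage sums of which 1 has a Rbp7-high partner in its library. Without that library, cKit+/DDR2- replicate 2, the Kit difference was -2.03 with adjusted p = 0.094 by limma, and 1776 genes were called instead of 3753.

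**Figure D3:**
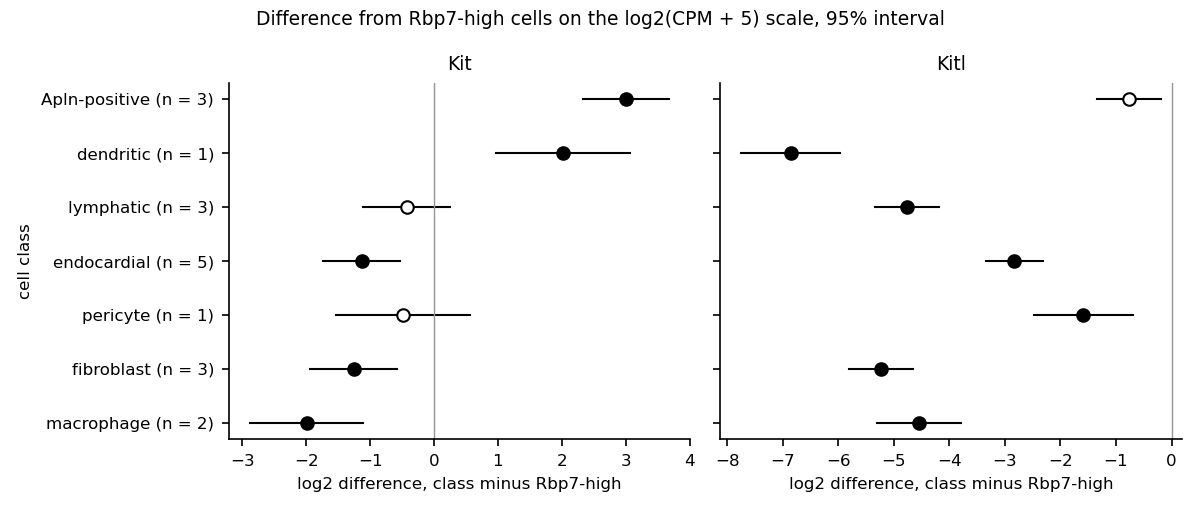
Difference of each cell class from Rbp7-high cells in Kit (left) and Kitl (right) on the log2(CPM + 5) scale, with 95% intervals from limma; n is the number of sums of the class. Filled points have an adjusted p under 0.05. Kit is higher in Apln-positive (3.004) and dendritic (2.02) cells, and Kitl is lower in every class but Apln-positive cells, whose adjusted p of 0.085 misses the threshold.

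In order of mean Kit level the classes ran Apln-positive, dendritic, Rbp7-high, lymphatic, endocardial, pericyte, fibroblast and macrophage, at 150, 85.3, 13.1, 10.6, 4.01, 2.72, 2.22 and 1.05 CPM. The range of Apln-positive cells (49.5 to 249) takes in the dendritic value, which comes from 1 cKit+ library alone. The pericyte value is 1 UMI from the cKit- sort alone, so its place in the order is not settled. Over all 75 pericytes Kit was 17.2 CPM (7.88 to 32.7), an interval that takes in the Rbp7-high mean. From Rbp7-high down, each neighbouring pair overlaps in range or in counting intervals. In order of mean Kitl level they ran Rbp7-high, Apln-positive, pericyte, endocardial, lymphatic, macrophage, fibroblast and dendritic, at 819, 482, 307, 106, 29.9, 24.9, 19.5 and 1.95 CPM. From Rbp7-high down to lymphatic cells, neighbouring ranges do not overlap in sums of 30 cells or more. Macrophages and fibroblasts lie within the range of lymphatic cells (7.55 to 56.4), and the dendritic value lies below all of them.

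The UMIs of a library show which cells carried its receptor and ligand, weighted by how many such cells it had. Apln-positive cells held 38.1% of the Kit UMIs of cKit+/DDR2+/CD45- (32.3 to 44.2), 16.9% in cKit+/DDR2+/CD45+, 68.8% (60.5 to 76.2) and 4.52% (3.05 to 6.43) in cKit+/DDR2- replicates 1 and 2, and 13.4% in cKit-/DDR2+. They were 4.52%, 0.566%, 10.1%, 0.762% and 1.58% of the cells. In every library their share of Kit UMIs was thus above their share of cells. The replicates of cKit+/DDR2- differed most. In replicate 2 dendritic cells held 54.6% of the Kit UMIs (50.7 to 58.5) from 7.52% of the cells.

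In 3 libraries endocardial cells held a smaller share of the Kit UMIs than of the cells: 7.04% from 35.9% of cells in cKit+/DDR2+/CD45-, and 3.47% from 35.3% and 13.9% from 42.4% of cells in the cKit+/DDR2- libraries. They held 2.60% (0.712 to 6.52) from 1.38% of cells in cKit+/DDR2+/CD45+, and 0% (0 to 3.73) from 1.97% in cKit-/DDR2+, intervals that take in the share of cells. In cKit+/DDR2+/CD45+ macrophages held 45.5% of 154 Kit UMIs from 91.8% of the cells. Cells that passed no gate held between 8.44% and 44.3% of the Kit UMIs of a library.

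Rbp7-high cells held 48.5% of the Kitl UMIs of cKit+/DDR2+/CD45-, 28.5% in cKit+/DDR2- replicate 2 and 58.2% in cKit-/DDR2+. They were 29.2%, 6.03% and 30.6% of the cells. In cKit+/DDR2- replicate 2 endocardial cells held more of them, 42.1%, at 105 CPM, which is near their 42.4% of the cells. In cKit+/DDR2- replicate 1 Apln-positive, endocardial and Rbp7-high cells held 24.2%, 23.6% and 22.3%, shares whose intervals overlap. These came from 10.1%, 35.3% and 9.40% of the cells. In cKit+/DDR2+/CD45+ macrophages held 73.2% of the Kitl UMIs, at 23.5 CPM, from 91.8% of the cells. Fibroblasts were 34.7% of the cells of cKit-/DDR2+ and held 4.45% of its Kitl UMIs.

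**Figure D4:**
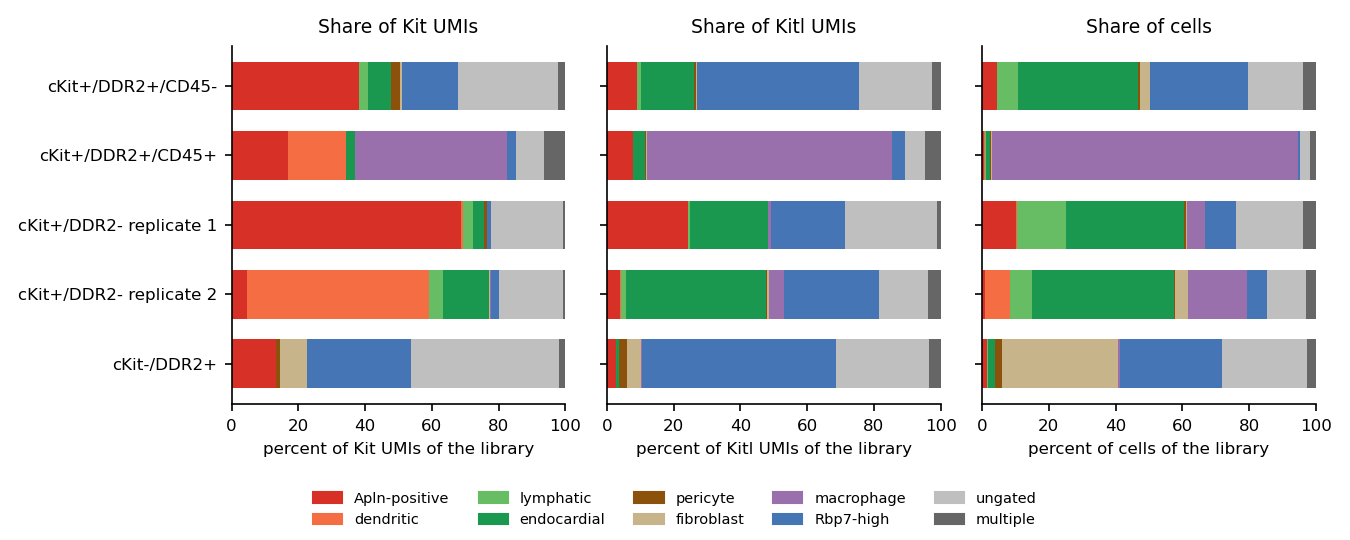
Share of the Kit UMIs, Kitl UMIs and cells of each library that fall in each marker-gated class, in percent, on linear axes. Apln-positive cells hold 68.8% of the Kit UMIs of cKit+/DDR2- replicate 1 from 10.1% of its cells, dendritic cells hold 54.6% in replicate 2, and Rbp7-high cells hold 58.2% of the Kitl UMIs of cKit-/DDR2+.

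Receptor and ligand transcripts met in the same cell at the highest share in Apln-positive cells. Of 184 such cells 95 (51.6%) held both, against 67 of 1329 Rbp7-high cells (5.04%), 49 of 2008 endocardial cells (2.44%) and 2 of 245 dendritic cells (0.816%). Kitl was seen in 90.5% of the Apln-positive cells with Kit and in 94.9% of those without. Across 22 sums of class and library, which share libraries and depth, Pearson's r of log2(CPM + 5) between Kit and Kitl was 0.31.

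Over all libraries 712 of 10770 cells held a Kit UMI. Of these 170 were dendritic, 105 Apln-positive, 94 endocardial, 69 Rbp7-high, 69 macrophages and 29 lymphatic, while 142 passed no gate. Within Apln-positive cells the log2 ratio of Kit over cKit-/DDR2+ was 1.60 in cKit+/DDR2+/CD45- (0.77 to 2.56) and 2.33 in cKit+/DDR2- replicate 1 (1.49 to 3.29), where 10.8% and 12.8% of genes were 2-fold or more higher. The libraries of the second ratio are alike in Xist, and those of the first differ in it. The Kitl ratios for the same cells were -0.06 (-0.35 to 0.24) and -0.34 (-0.67 to -0.00065).

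In Rbp7-high cells the Kit ratio over cKit-/DDR2+ was 1.26 in cKit+/DDR2+/CD45- (0.56 to 1.98), from 45 and 30 UMIs, where 1.06% of genes were 2-fold or more higher. Of the 45 UMIs, 14 lay in 15 cells that grouped with Apln-positive cells, whose part in the ratio was not tested. The Kit ratio was 0.06 in cKit+/DDR2- replicate 1 (-3.05 to 2.04), from 2 UMIs, and 0.78 in replicate 2 (-0.25 to 1.74), intervals that include 0, where 6.74% and 2.6% of genes were 2-fold or more higher. Kitl ratios in Rbp7-high cells were -0.02, -0.34 and 0.08, so the ligand level of these cells differed by less than the 2-fold size counted in all 3 comparisons. Endocardial Kitl ratios over cKit-/DDR2+ were -0.35, -0.62 and -0.46 in the same order, and -1.01 (-1.61 to -0.41) in cKit+/DDR2+/CD45+, from 45 and 55 UMIs. Of all genes 13.4%, 14.2%, 14.8% and 17.3% lay 2-fold or more apart in these comparisons of endocardial cells.

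Cells that passed no gate held 292 Kit UMIs. By their cluster in an unsupervised grouping, 77 of them belonged with Apln-positive cells and held 81 Kit UMIs (123 CPM), and 699 with Rbp7-high cells and held 95 (25.4 CPM). A further 58 UMIs came from 6 cells, all in cKit+/DDR2- replicate 2, that carried at least 3 of the 7 mast cell markers. Kit in these 6 cells was 2237 CPM (1699 to 2892), at most 13 UMIs in a cell, and Kitl was 0. Mast cells are a textbook KIT-bearing lineage, and per UMI these cells held more Kit than any gated class. Without them Kit in that library was 19.8 CPM. The 16 ungated cells with at least 3 of the 5 markers of type 2 innate lymphoid cells held 80.5 CPM of Kit (40.2 to 144) from 11 UMIs and no Kitl, and the 83 with at least 3 of the 6 progenitor markers held 3.10 CPM (0.640 to 9.07) from 3 UMIs. Among the ungated cells 7 with at least 3 smooth muscle markers held 42 Kitl UMIs (778 CPM) and 0 Kit UMIs.

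Over all genes 4.54% were called higher and 6.15% lower in Apln-positive than in Rbp7-high cells, and counts of the genes that act with the pair are set against these shares. Of 26 tested genes of KIT proximal signalling, 0 were higher and 1 lower than in Rbp7-high cells, with a median log2 difference of -0.06 against -0.04 over all genes. The lower one was Tec, a tyrosine kinase, at 0.973 ± 1.69 CPM in Apln-positive cells and 10.6 ± 5.93 CPM in Rbp7-high cells (SD, n = 3 and 4, log2 difference -1.34, adjusted p = 0.030 by limma). Of 13 genes that restrain the receptor 1 was lower, Sh2b3, an adaptor that dampens KIT signals (-0.56, adjusted p = 0.025 by limma), and 0 higher. Of 9 transcription factors known to bind Kit in blood or mast cells, 1 was lower, Gata2, with 42.4 ± 11.6 CPM in Apln-positive cells and 98.5 ± 27.7 CPM in Rbp7-high cells (-1.02, adjusted p = 0.0073 by limma), and 0 were higher. Without cKit+/DDR2- replicate 2 these 3 calls missed the threshold (adjusted p = 0.142 for Tec, 0.081 for Sh2b3 and 0.079 for Gata2, by limma), as they did without cKit+/DDR2+/CD45- (0.092, 0.094 and 0.058), and those of Tec and Sh2b3 also without cKit+/DDR2- replicate 1 (0.059 and 0.115) or cKit-/DDR2+ (0.074 and 0.053). In lists this short 1 call lies near the share over all genes. Gata1 and Myb, the main blood factors of that list, were too low to test. Of the 5 type III receptor kinases, the family of Kit, Kit alone was called in this contrast, and Flt3, Csf1r and Pdgfra averaged 2.52, 0.840 and 0.840 CPM in Apln-positive cells. In dendritic cells 2 of the 5 were called higher, Kit and Flt3, a receptor that type 1 dendritic cells depend on, at 91.7 CPM. Flt3 is also among the markers against which that class was checked.

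On the ligand side, 1 of 7 proteases known to shed KITL was higher in Apln-positive cells and 0 were lower, again near the shares over all genes. It was Adam19, at 70.4 ± 46.1 CPM in Apln-positive cells and 18.1 ± 6.95 CPM in Rbp7-high cells (1.47, adjusted p = 0.012 by limma). Of 11 other niche factors 1 was lower, the chemokine Cxcl12, with 657 ± 228 CPM in Apln-positive cells and 2489 ± 841 CPM in Rbp7-high cells (-2.03, adjusted p = 0.0032 by limma), and 0 were higher. Without cKit+/DDR2- replicate 2 the adjusted p by limma was 0.128 for Adam19 and 0.065 for Cxcl12, and without cKit+/DDR2+/CD45- it was 0.099 for Adam19. Of the 8 classes, Rbp7-high cells had the highest mean level of Cxcl12 as of Kitl, both being factors that keep blood progenitors in the marrow. Cxcl12 was among the leading genes of the cluster led by Alpl, Hey1 and Sema3g, and its level in Rbp7-high cells was not split by cluster.

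Endocardial cells differed from Rbp7-high cells in more of these genes, as they did over all genes. Over all genes 33.3% were called there, 15.6% higher and 17.7% lower. In KIT proximal signalling 4 of 26 were higher and 8 lower (median 0.01, all genes -0.02). The Src family kinase Lyn averaged 29.7 ± 3.68 CPM in endocardial cells and 150 ± 18.4 CPM in Rbp7-high cells (-2.18, adjusted p = 1.0e-09 by limma), and Pik3cb, a catalytic subunit of PI3 kinase, was also lower (-2.08). Tec (1.58) and Plcg2 (1.51), a phospholipase, were higher. Of the transcription factors 5 of 9 were higher, among them Runx1, Tal1 and Mitf, and Fli1 was lower (-1.45), with a median of 0.72. Of the shedding proteases Adam33 was higher (2.05), and Adam19 (-1.70) and Adam17 (-0.77) lower. Without cKit+/DDR2- replicate 2 the calls of Tal1 and Adam17 missed the threshold (adjusted p = 0.084 and 0.139 by limma), as did that of Adam17 without cKit+/DDR2+/CD45- (0.068). Of the niche factors 3 of 11 were higher and 3 lower. Vcam1, an adhesion molecule, stood at 677 ± 82.0 CPM in endocardial cells and 35.8 ± 18.7 CPM in Rbp7-high cells (4.23, adjusted p = 8.0e-06 by limma), while Cxcl12 (-6.16) and the Notch ligands Jag2 (-4.14) and Dll4 (-2.87) were lower.

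In lymphatic cells 3 of 26 signalling genes were higher and 1 lower (median 0.04, all genes 0.06), against 17.7% of all genes called higher and 12.4% lower. The adaptor Shc1 averaged 160 ± 28.2 CPM in lymphatic cells and 35.7 ± 14.7 CPM in Rbp7-high cells (2.01, adjusted p = 4.4e-07 by limma). Cblb, a ubiquitin ligase, was the single restraint gene called of 13 (1.14). Of the shedding proteases Adam10 (1.00) and Adam33 (1.54) were higher, the second with adjusted p = 0.105 by limma without cKit+/DDR2- replicate 2 and 0.051 without replicate 1. Il7, a cytokine for lymphocytes, stood at 209 ± 8.19 CPM in lymphatic cells and 8.18 ± 12.5 CPM in Rbp7-high cells (4.43, adjusted p = 2.3e-06 by limma). In dendritic cells 9 of 26 signalling genes were higher and 7 lower, and 6 of 13 restraint genes were higher and 1 lower, with medians of -0.03 and 0.34 against -0.39 over all genes, of which 11.4% were called higher and 29.6% lower.

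The genes whose levels ran most like Kit over the 22 sums, by Pearson's r of log2(CPM + 5) among 8384 genes, were Eif2b2 (0.87), Sept1 (0.84), Gfod1 (0.82), Bend5 (0.82) and Trio (0.81). Gfod1 averaged 93.4 CPM in Apln-positive, 42.9 CPM in dendritic and 50.5 CPM in Rbp7-high cells, and Bend5 35.6, 5.12 and 12.6 CPM. Those most like Kitl were Tspan7 (0.98), Fabp4 (0.96), Phactr4 (0.96), Wt1 (0.94) and Dcbld1 (0.94). Tspan7, a membrane tetraspanin, averaged 266 CPM in Apln-positive cells, 66.6 CPM in endocardial cells and 440 CPM in Rbp7-high cells, and Fabp4 carries fatty acids in capillary cells. The sums of a library share its preparation, so these values describe likeness in level across the classes.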

How the data were processed

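Per the submitters' processing notes, the authors used Cell Ranger (version not given in the sources used here), the mm10 build and Seurat 4.0.4. In the deposited tables each value is a natural log, taken of 1 plus a gene's share of its cell's UMIs times 10000. UMIs were recovered from the step of each cell, and 100% of values were whole within 0.01. Requiring 200 genes, 500 UMIs and a mitochondrial share of no more than 15% removed 1 cell. A gene that a table does not list was set to 0. The 190 barcodes of cKit+/DDR2+/CD45+ that repeat deeper cells of cKit+/DDR2- replicate 1 were left out, a choice made after the files were seen, with keeping them as an alternative.

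Gates were applied in the order lymphatic, endocardial, Apln-positive, Rbp7-high, fibroblast, macrophage, dendritic, pericyte. No doublet caller was run, and cells passing gates of 2 lineages were set apart. UMIs of a class and library with at least 30 cells gave 22 sums, scaled to CPM. Genes with 20 CPM in at least 1 sum entered limma 3.58.1 (R 4.3.3) with a trend on log2(CPM + 5), class and library as terms, each class minus Rbp7-high, Benjamini-Hochberg over 9861 genes and a threshold of 0.05. With a pseudocount of 5, differences of low genes are understated. Replicates of a sort are not stated to be separate animals, and p-values measure the spread between these sums. Libraries were compared by exact ratios, over genes with at least 10 CPM in either. The unsupervised grouping was Leiden at resolution 1 on 30 principal components (scanpy 1.11.5, Python 3.11.15). The fit was tested on simulated data.

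The members, lists and gates were chosen with earlier results of these data known. Named genes are list members called in the endocardial, Apln-positive or lymphatic contrast, at most 4 per list and contrast, and the 5 most like each member.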

Additional observations from a re-analysis of the deposited data

Results flagged for a closer look

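Kit signal was found outside the gated classes, and barcodes were shared between libraries. Kit stood at 2237 CPM in 6 ungated cells with at least 3 mast cell markers, all in cKit+/DDR2- replicate 2, above the limit that a count of 0 allows, and no such cell was found in the cKit-/DDR2+ library. The number of barcodes shared between cKit+/DDR2+/CD45+ and cKit+/DDR2- replicate 1 was 190, against 1 to 3 in each other pair of libraries.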

How the results depend on the processing

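Of 443 values recomputed under alternatives for the answers to the comparisons, 408 were counted as kept, by rules that differ in strictness. Class differences had to keep their direction and side of the threshold, and library levels to stay within counting error. Counts of called genes had only to stay within a set fold, and endocardial counts of 2211 to 4565 all passed. Ratios between sorts were allowed the spread of the 2 cKit+/DDR2- replicates, a rule that either replicate alone meets almost by design. With halved gates the Kit pericyte difference turned to 0.26, Kitl in Apln-positive cells passed the threshold at -0.68, and 645 genes were called for Apln-positive cells instead of 1054. With classes from clusters the Kit lymphatic difference passed at -0.97, the Kitl pericyte difference missed it at -1.14, and Apln-positive calls were 2451. Kitl in Apln-positive cells also passed with cells of 2 lineages kept (-0.78) and with voom weights (-0.75), which gave 5766 calls for macrophages and 1451 for pericytes. Without both libraries that share barcodes, chosen after seeing the data, Apln-positive calls were 493. Leaving out 1 library in turn, which leaves fewer sums, gave Kit differences of -1.27 to -0.99 for endocardial cells, -1.41 to -1.10 for fibroblasts and -2.08 to -1.88 for macrophages. It gave Kitl differences of -0.87 to -0.71 for Apln-positive cells and -1.60 to -1.52 for pericytes, and calls of 1869 to 2986 for lymphatic, 225 to 1072 for Apln-positive and 1776 to 3952 for macrophage contrasts. With totals that leave out Gm42418, Lars2 and mitochondrial genes, Kit was 26.2 CPM for cKit+/DDR2+/CD45- and 24.7 CPM for cKit+/DDR2- replicate 2, and Kitl 372, 31.8, 118 and 265 CPM for cKit+/DDR2+/CD45-, cKit+/DDR2+/CD45+, cKit+/DDR2- replicate 2 and cKit-/DDR2+. As a mean over cells, Kit was 19.6 CPM for cKit+/DDR2- replicate 2 and 7.73 CPM for cKit-/DDR2+, and Kitl 407, 41.9, 203, 138 and 437 CPM in the 5 libraries. Without the mast-marked cells, Kit in cKit+/DDR2- replicate 2 was 19.8 CPM. For the other values named here the cause was not tested. Of the named list genes other than Kit in the Apln-positive, endocardial and lymphatic contrasts, 0 of 5, 11 of 19 and 9 of 15 kept their call under all 19 alternatives, and none changed direction. Of 110 recomputed shares of cells or UMIs, 63 moved beyond their counting interval. No paired analysis was possible because replicate numbers follow accession order and 1 sort alone has 2 libraries. Hidden cells for an unlisted gene were not modelled, since Kit and Kitl are listed in every library. Depth limits Kit, whose levels rest on 0 to 89 UMIs per library in endocardial, pericyte and fibroblast sums, 2 to 45 in Rbp7-high sums and 4 to 26 in lymphatic sums.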
